A study of Homo sapiens with 15 samples.

Results

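Interferon-stimulated effector genes carry out the antiviral program that cells start after interferon binds its receptors. The set described here holds 50 of them, taken as the rows of the count table that bear their gene symbols. It is 50 of 26485 gene symbols in the table. All 50 were found, and all 50 passed the low-count filter, among 17243 genes tested. RNA-seq was measured in 15 libraries of U937 and ML1, 2 human myeloid leukemia cell lines, and the series design asks which candidate transcription factors of TNF change in mRNA.

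Every culture was treated for 24 h and received 5 µM Q-VD-OPh, an inhibitor of caspases, so the diluent groups carry it too. The groups were U937 with 10 nM prexasertib and 350 nM LSN622666 (the combination), U937 with 10 nM prexasertib, U937 with diluent, ML1 with 10 nM prexasertib and ML1 with diluent. Prexasertib inhibits the checkpoint kinase CHK1, and LSN622666 is a compound known here by its code name. Each group held 3 libraries. No group received LSN622666 alone, ML1 had no group with both compounds, and each line stands for 1 leukemia.

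Type I and type III interferons act through receptor-bound kinases that activate a transcription factor complex with IRF9, which binds the interferon-stimulated response element (ISRE) in target promoters. The proteins made from these targets bind or cut foreign RNA, slow translation, tag proteins with the ubiquitin-like modifier ISG15, and block the entry or release of viruses. A different promoter element of interferon responses is called GAS. In myeloid cells the same genes can also be raised by IRF transcription factors downstream of sensors of nucleic acids.

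Promoter sequence was available for 41 of the 50 genes, as 57 windows of RefSeq on GRCh38.p14 that run 250 bases before to 50 bases after a transcript start. The other 9 are IFIT2, MX2, OAS2, OASL, IFITM2, USP18, PARP10, LY6E and UBA7. The ISRE core, spelled as GAAA, any 2 bases and GAAA again, was searched on both strands and occurred in at least 1 window of 29 of the 41 genes (70.7%), and in 34 of 57 windows (59.65%). Over all 35116 windows of the same length the share was 3.574%, and over 27305 genes it was 4.376%. The 12 genes without this core in their windows are OAS1, IFI35, HERC6, CMPK2, SAMD9L, XAF1, UBE2L6, SP100, SP110, ADAR, FBXO6 and GMPR. The GAS letters TTCNNNGAA, which read the same on both strands, occurred in 11 of 41 genes (26.8%) and 13 of 57 windows (22.8%), against 9.376% of all genes and 7.657% of all windows. Matches of the core may overlap each other, and bases shared between the 2 motifs were not counted apart.

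The 200 bases before the start are printed for 8 genes, with every ISRE core in capitals. The first 4 genes were called higher with prexasertib in both lines, and the last 4 were called higher in ML1 with no call in U937. They were chosen after their values were seen, to set genes with these 2 patterns of calls side by side.
IFIT1 (chr10:89392423-89392622, plus strand): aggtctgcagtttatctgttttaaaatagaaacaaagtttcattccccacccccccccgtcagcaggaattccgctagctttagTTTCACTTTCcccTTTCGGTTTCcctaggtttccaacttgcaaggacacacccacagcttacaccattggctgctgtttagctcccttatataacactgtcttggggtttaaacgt
IFIT3 (chr10:89327797-89327996, plus strand): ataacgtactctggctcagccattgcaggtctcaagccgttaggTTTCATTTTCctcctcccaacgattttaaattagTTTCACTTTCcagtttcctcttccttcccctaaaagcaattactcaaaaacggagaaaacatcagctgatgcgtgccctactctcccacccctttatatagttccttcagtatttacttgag
ISG15 (chr1:1013297-1013496, plus strand): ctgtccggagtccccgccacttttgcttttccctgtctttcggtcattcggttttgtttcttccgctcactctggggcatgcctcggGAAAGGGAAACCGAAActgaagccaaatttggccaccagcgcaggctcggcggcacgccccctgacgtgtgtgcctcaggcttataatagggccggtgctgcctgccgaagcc
IFI44 (chr1:78649631-78649830, plus strand): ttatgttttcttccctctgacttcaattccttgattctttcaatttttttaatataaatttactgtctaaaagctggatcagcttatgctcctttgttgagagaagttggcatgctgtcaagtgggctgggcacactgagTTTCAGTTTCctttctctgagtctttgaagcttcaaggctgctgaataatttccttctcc
IFI27 (chr14:94110536-94110735, plus strand): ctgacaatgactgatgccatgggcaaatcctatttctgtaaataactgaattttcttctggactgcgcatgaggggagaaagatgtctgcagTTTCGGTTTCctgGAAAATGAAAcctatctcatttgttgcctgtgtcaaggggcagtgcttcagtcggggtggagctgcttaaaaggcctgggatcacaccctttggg
EPSTI1 (chr13:42992242-42992441, minus strand): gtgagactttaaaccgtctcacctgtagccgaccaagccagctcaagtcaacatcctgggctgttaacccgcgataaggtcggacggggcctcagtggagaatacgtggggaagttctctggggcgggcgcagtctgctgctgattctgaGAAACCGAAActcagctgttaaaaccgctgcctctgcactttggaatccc
IFI6 (chr1:27672193-27672392, minus strand): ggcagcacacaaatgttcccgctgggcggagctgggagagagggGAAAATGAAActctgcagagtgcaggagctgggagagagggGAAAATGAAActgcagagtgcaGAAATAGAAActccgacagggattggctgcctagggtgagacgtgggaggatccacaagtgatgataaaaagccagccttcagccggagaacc
RSAD2 (chr2:6877577-6877776, plus strand): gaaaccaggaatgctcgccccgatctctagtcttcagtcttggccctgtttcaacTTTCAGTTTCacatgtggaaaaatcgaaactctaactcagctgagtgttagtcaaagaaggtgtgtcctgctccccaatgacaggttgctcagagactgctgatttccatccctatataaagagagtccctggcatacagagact

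All 8 stretches were picked among windows with a core, and RSAD2 has another window with none. IFIT1 and IFIT3 have the motif as its reverse complement, in a pair of copies each. In ISG15 a pair of copies overlap in a single capital run. Among the 29 genes with a core, 10 were called higher, 1 lower and 18 neither with prexasertib in U937, and among the 12 without one the numbers were 2, 1 and 9. Of all tested genes, 18.3% were called higher and 12.8% lower there. Of the genes without a window, IFIT2, OAS2, OASL and UBA7 were called higher and IFITM2 and LY6E lower. In ML1 the median log2 fold change was 4.11 with a core and 3.68 without one. These are descriptions of letters in short windows and say nothing of binding.

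Total counts per library ran between 49011222 and 87301014, and the correlation of replicates within groups was 0.982 to 0.9937 over genes on the log2 scale. Whether the 3 replicates are separate cultures is not in the labels, so p-values reflect only the spread between these libraries, which may be technical. Levels are read counts scaled to library size (CPM), and changes are given on the log2 scale with the standard error after ±. That error comes from 1 fit over all 15 libraries, so in each line it also carries the spread of the other groups. A call means an adjusted p below 0.05 by the quasi-likelihood F test of edgeR, with p-values adjusted by Benjamini-Hochberg across the tested genes. All 14 myeloid markers had counts in both lines. With prexasertib they summed to 1669 to 2243 CPM in U937, against 2606 to 3280.0 CPM with diluent. There 2 were called higher (CD14 and MPO, at 2.38 and 0.86) and 3 lower (CD33, ELANE and PRTN3, at -0.37, -0.75 and -0.70). In ML1 the sum was 7286 to 9906 CPM with prexasertib and 7199 to 9187 CPM with diluent, where 8 were called higher, among them CD14 (4.84), LYZ (2.82), CD68 (2.36) and CSF1R (2.30), and 4 lower (MPO, ELANE, PRTN3 and AZU1, at -0.90, -1.20, -1.32 and -0.89). Of 21 markers of other cell types, 11 were tested, with 2 called higher and 1 lower in U937 and 4 higher and 2 lower in ML1. Of all tested genes, 18.3% were called higher and 12.8% lower with prexasertib in U937, and 25.3% and 23.5% in ML1. The 4 fibroblast and endothelial markers summed to 217 to 297 CPM with prexasertib and 44.6 to 55.3 CPM with diluent in ML1, where PECAM1 changed by 2.35. CLEC4C, a defining marker of plasmacytoid dendritic cells, the main interferon-producing cell, had up to 8 counts over a group in U937 and 0 counts in ML1, while the list's 3 markers summed to 48.9 to 52.2 CPM in ML1 with prexasertib and 56.3 to 61.4 CPM with diluent, nearly all of it TCF4. In U937 that sum was 17.0 to 22.0 CPM in the combination, 14.1 to 19.3 CPM with prexasertib and 22.6 to 25.3 CPM with diluent. PAX5, a B cell marker, stood at 14.3 ± 9.14 CPM in ML1 with prexasertib and 0.0748 ± 0.0752 CPM with diluent (SD, n = 3 each). LILRA4, another plasmacytoid dendritic marker, was called higher in both lines, at 1.19 ± 0.539 CPM with prexasertib and 0.215 ± 0.136 CPM with diluent in U937 (2.42) and 1.24 ± 0.163 and 0.425 ± 0.0739 CPM in ML1 (1.54). TCF4, of the same list, was called lower with prexasertib in U937 (-0.58, adjusted p = 0.0031) and had no call in ML1 (-0.25, adjusted p = 0.1). The part of these markers in the results was not tested. In these bulk libraries, more cells that express a gene and more RNA per cell cannot be told apart.

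U937 prexasertib replicate 2 stands apart for these genes. The 50 genes together took 0.214%, 0.441% and 0.205% of all counts in U937 prexasertib replicates 1, 2 and 3, against 0.185% to 0.197% in U937 with diluent. Replicate 2 was the highest of the 3 prexasertib libraries for 40 of the 50 genes (80%), while it was highest for 38.2% of all tested genes. Its level divided by the mean of replicates 1 and 3 had a median of 0.993 over all tested genes. Calls of prexasertib effects in U937 are therefore given with and without it, and values printed without that remark include it. In ML1 the share was 3.35%, 2.46% and 2.92% with prexasertib, against 0.261% to 0.280% with diluent, with no overlap.

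In ML1, prexasertib raised all 50 genes. Background calls in that comparison were 25.3% of tested genes higher and 23.5% lower. In all 50 every prexasertib library stood above every diluent library, which held for 30.0% of tested genes. The median log2 fold change was 3.70, with a range of 1.22 for IFITM2 to 10.37 for IFI27, and the median over all tested genes was 0.02. The largest adjusted p was 0.00082, for IFIT5. All 50 calls also stood when any 1 of the 6 ML1 libraries was left out.

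**Figure D1:**
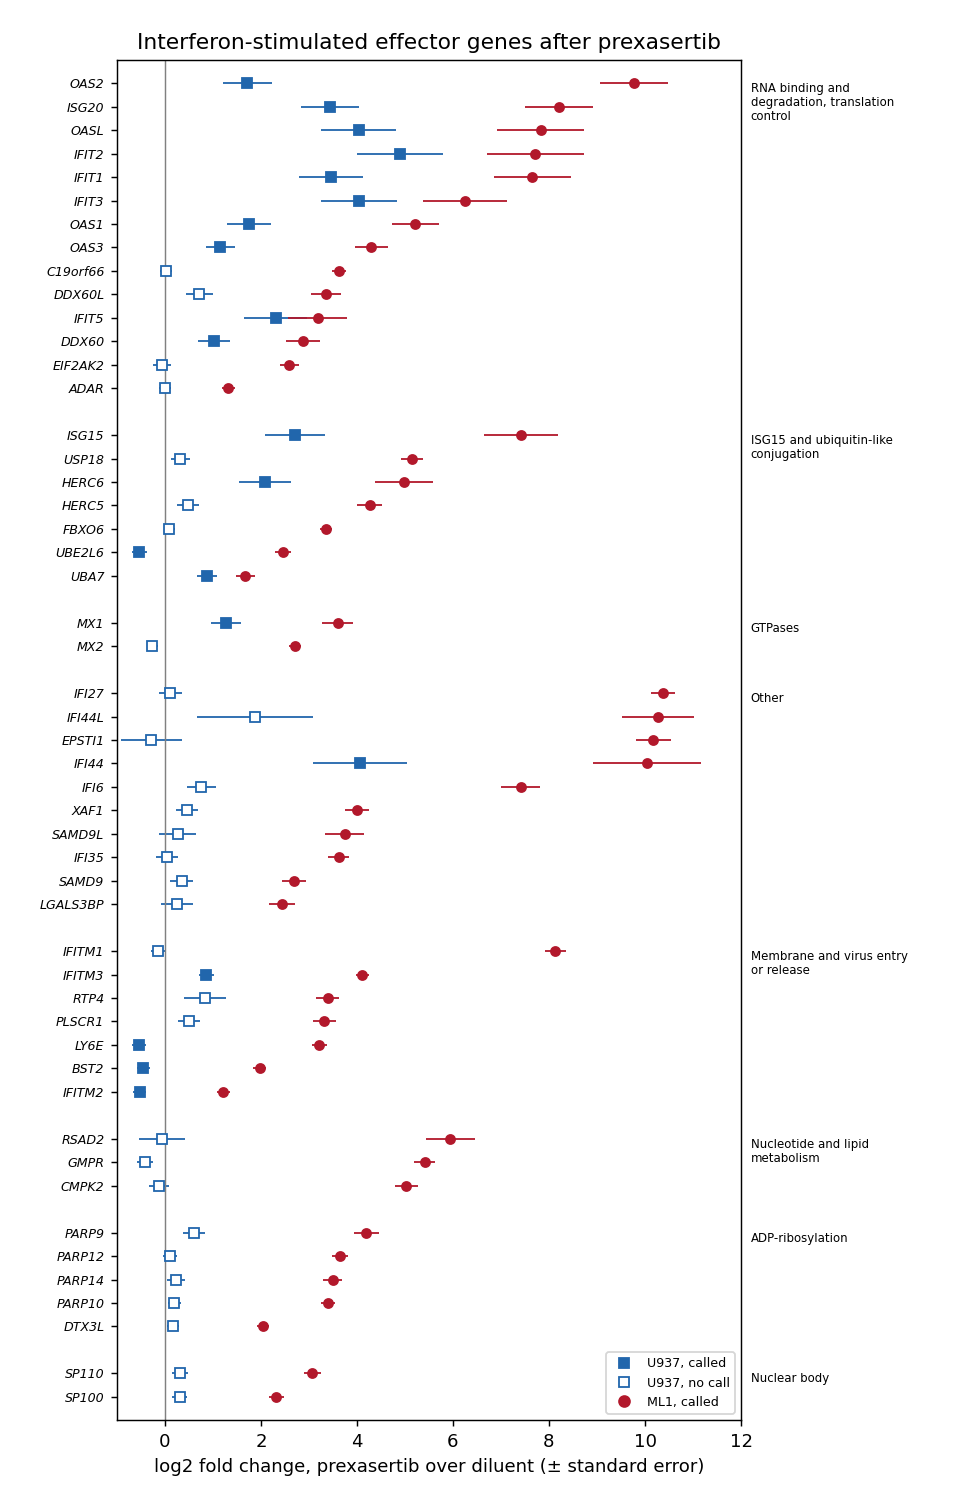
Log2 fold change of prexasertib over diluent for all 50 genes, grouped by role, in U937 (blue squares, filled where called) and ML1 (red circles, all called). Bars are standard errors from 1 fit over all 15 libraries, 3 a group, and are not the spread of each line's own libraries. Every ML1 point lies right of 0, between 1.22 and 10.37, while 30 of the U937 points are open.

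The 14 genes that act on RNA or translation had a median change of 4.76 in ML1. OAS2, which makes the oligoadenylates that switch on RNase L, stood at 1386, 965 and 1154 CPM in ML1 prexasertib replicates 1, 2 and 3, against 1.68, 1.5 and 0.781 CPM with diluent, a change of 9.78 ± 0.71 (adjusted p = 1.1e-07). ISG20, an exonuclease that degrades RNA, was at 339, 193 and 345 CPM with prexasertib and 1.1, 0.914 and 0.959 CPM with diluent, a change of 8.21 ± 0.70 (adjusted p = 6.8e-07). Replicate 2 was the lowest treated library for both, and it lay far above all diluent libraries. OASL, an OAS relative without synthetase activity that enhances RIG-I signaling, had 644, 446 and 583 CPM with prexasertib, against 3.19, 2.47 and 1.69 CPM with diluent, a change of 7.83 ± 0.90 (adjusted p = 1.4e-05). IFIT2, of the IFIT proteins that bind viral RNA, had 4230.0, 2148 and 3439.9 CPM with prexasertib, against 17.2, 15.2 and 14.4 CPM with diluent, a change of 7.71 ± 1.01. The groups did not overlap for either gene. IFIT1, which holds back translation of foreign capped RNA, was at 716, 715 and 717 CPM with prexasertib, almost the same in each library, and at 3.62, 3.55 and 3.5 CPM with diluent, a change of 7.65 ± 0.81.

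Other RNA-directed genes rose less. IFIT3, which stabilizes IFIT1, changed by 6.25, OAS1 by 5.22, OAS3 by 4.30, and IFIT5, which binds RNA with a triphosphate end, by 3.18. C19orf66, an inhibitor of ribosomal frameshifting, rose by 3.63, and the helicase genes DDX60 and DDX60L rose by 2.88 and 3.35. EIF2AK2, the kinase PKR that stops translation when it meets double-stranded RNA, rose by 2.59. ADAR, which edits adenosines in double-stranded RNA, rose least of the 14, by 1.32 ± 0.13, to 2196 ± 224 CPM with prexasertib, against 879 ± 14.7 CPM with diluent (SD, n = 3 each). OAS and IFIT genes have close relatives, and reads shared between relatives could be split or lost in the authors' counting, so values of single family members are uncertain.

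All 7 genes listed under ISG15 and ubiquitin-like conjugation rose in ML1. ISG15 itself was at 1375, 1331 and 1602 CPM with prexasertib, against 9.85, 8.14 and 7.19 CPM with diluent, a change of 7.42 ± 0.78. Its activating enzyme UBA7 rose by 1.67, the conjugating enzyme UBE2L6 by 2.46, the ligase HERC5 by 4.26, and the deconjugating protease USP18 by 5.14. HERC6, the close relative of HERC5 that is the ISG15 ligase in mice, rose by 4.97. FBXO6, an F-box protein that recognizes glycoproteins, rose by 3.35. UBA7 had the smallest change of the 7 and also the highest diluent level after adjusting for exon length, 42 CPM per kilobase.

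The dynamin-like GTPases that trap viral particles rose by 3.60 (MX1) and 2.71 (MX2). MX1 had the lowest level per exon length of the 50 genes in ML1 with prexasertib, 7.19 CPM per kilobase over all annotated exons.

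Among the 7 membrane genes IFITM1, which blocks fusion of viral and cell membranes, changed most in ML1. It was at 91, 82.9 and 91.9 CPM with prexasertib and 0.272, 0.451 and 0.178 CPM with diluent, a change of 8.13 ± 0.23. Its relatives IFITM3 and IFITM2 rose by 4.11 and 1.22. IFITM2 was the least changed of all 50, with 95.4, 112 and 119.9 CPM with prexasertib and 49, 47.4 and 44.3 CPM with diluent, still without overlap. IFITM1 and IFITM2 share 351 exon bases, 32.5% of the exons of IFITM1 and 22.7% of those of IFITM2, on the same strand, so reads there could be split or lost in the authors' counting. The scramblase gene PLSCR1 rose by 3.32, RTP4, a chaperone of receptors with antiviral activity, by 3.39, and LY6E, a surface protein that restricts coronavirus entry, by 3.22. BST2, the tetherin that holds budding virions on the cell, rose by 1.97 ± 0.13, to 613 ± 66.8 CPM with prexasertib, against 156 ± 10.4 CPM with diluent (SD, n = 3 each).

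The largest changes in ML1 belonged to genes whose biochemical action is less well described. IFI27, which encodes a small hydrophobic protein of mitochondria, stood at 607, 796 and 789 CPM with prexasertib and 0.407, 0.653 and 0.568 CPM with diluent, a change of 10.37 ± 0.25 (adjusted p = 1.0e-14). IFI44L had 122, 96.2 and 103 CPM with prexasertib, against 0.017, 0.131 and 0.0888 CPM with diluent, where it held 17 counts over the 3 libraries. All treated libraries of both genes lay far above the diluent ones. EPSTI1, first described as induced by stroma in epithelial cells, had 265, 175 and 195 CPM with prexasertib, against 0.187, 0.154 and 0.213 CPM with diluent, a change of 10.17 ± 0.36. IFI44 had 183, 129 and 138 CPM with prexasertib, against 0.17, 0.131 and 0.124 CPM with diluent, a change of 10.04 ± 1.13. EPSTI1 and IFI44 were near the detection limit with diluent, at 36 and 28 counts over 3 libraries, so their fold changes rest on few counts in the denominator. IFI44 and IFI44L lie 3651 bases apart on chromosome 1, and their fold changes in ML1 were close (10.04 and 10.28).

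The remaining genes of that group rose as well. IFI6, which restricts flavivirus replication at the endoplasmic reticulum, rose by 7.41, and the antiviral translation inhibitors SAMD9L and SAMD9 by 3.74 and 2.69. XAF1, a proapoptotic protein, rose 16.1-fold, IFI35 by 3.62 on the log2 scale and the secreted glycoprotein gene LGALS3BP by 2.44. The nucleotide genes rose together. RSAD2 (viperin), which makes a chain-terminating nucleotide, rose by 5.95, its neighbour CMPK2, a mitochondrial nucleotide kinase, by 5.02, and GMPR, GMP reductase, by 5.41.

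The ADP-ribosyltransferase genes PARP9, PARP10, PARP12 and PARP14 rose by 4.20, 3.40, 3.65 and 3.49 in ML1, and DTX3L, the ubiquitin ligase partner of PARP9, rose by 2.04. PARP9 and DTX3L overlap over 217 exon bases on opposite strands. SP110 and SP100, proteins of nuclear bodies, rose by 3.07 and 2.32.

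**Figure D2:**
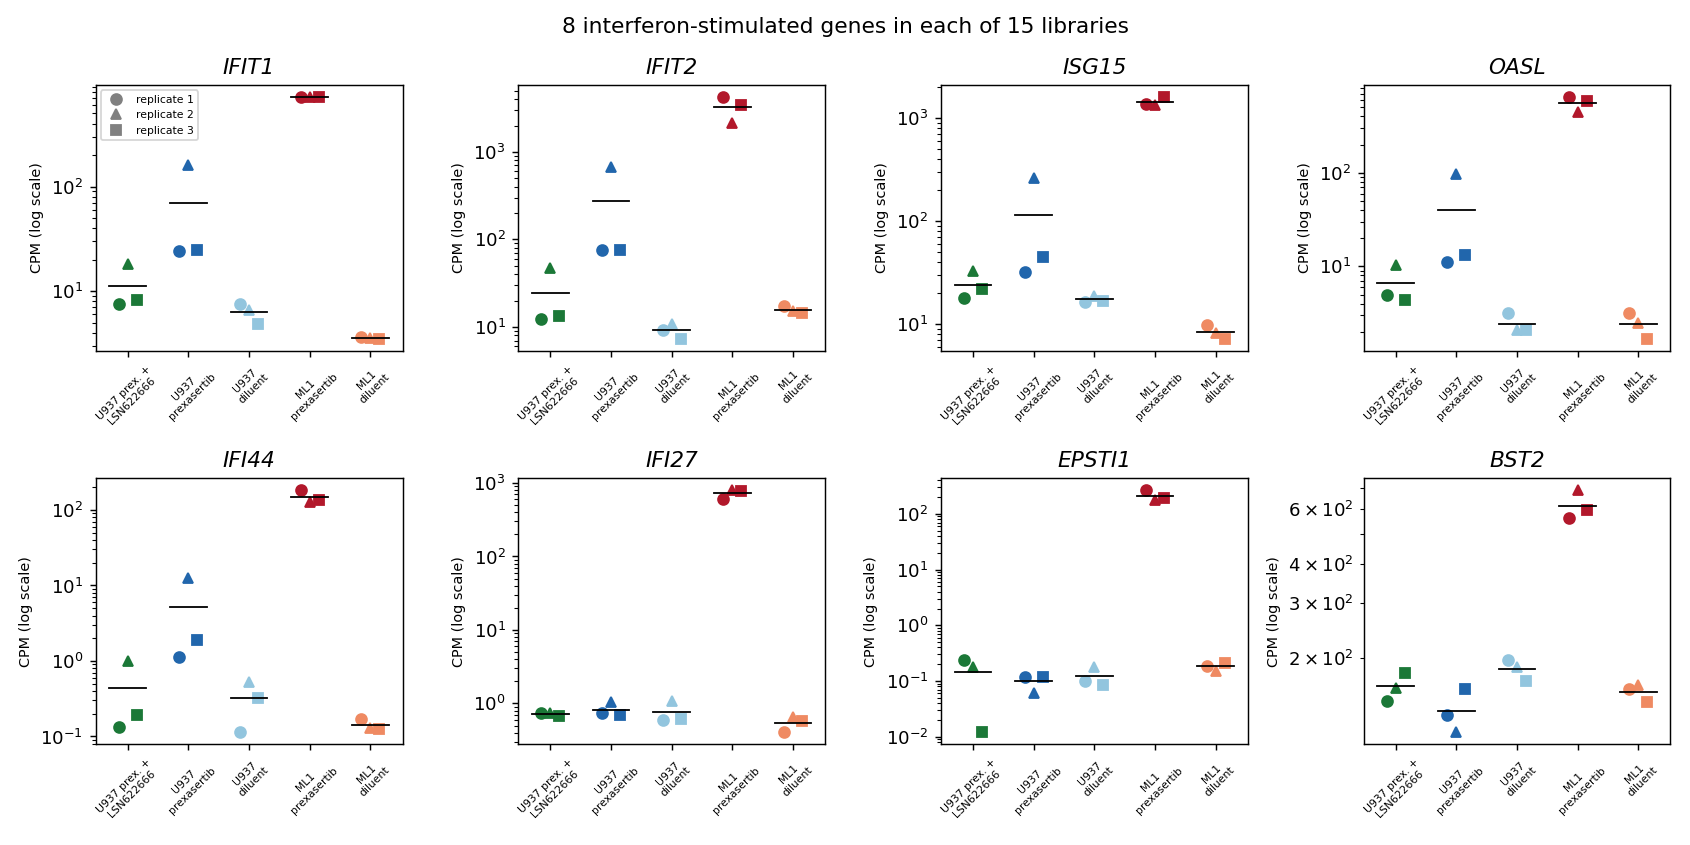
CPM on a log axis for 8 of the genes in each of the 15 libraries, by group, with replicate number as the symbol and the group mean as a bar. IFI27 and EPSTI1 lie far above 100 CPM in ML1 with prexasertib and stay near 1 CPM or lower in U937, and U937 prexasertib replicate 2 (triangle) lies above its group for IFIT1, IFIT2, ISG15, OASL and IFI44.

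In U937, prexasertib raised 16 of the 50 genes and lowered 4, with 30 not called. Background calls were 18.3% higher and 12.8% lower. The members' median log2 fold change was 0.33. For 15 genes every prexasertib library lay above every diluent library, where 24.0% of tested genes did so. By role the 16 were 10 of the 14 genes that act on RNA or translation, 3 of 7 under ISG15 and ubiquitin-like conjugation, 1 of 7 membrane genes, 1 of 2 GTPase genes and 1 of 10 in the mixed group. None of the 5 ADP-ribosylation genes, 3 nucleotide genes or 2 nuclear body genes was called there.

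By log2 fold change IFIT2 was first in U937, then IFI44, IFIT3, OASL, IFIT1, ISG20 and ISG15. IFIT2 stood at 75.4, 674 and 76.2 CPM in prexasertib replicates 1, 2 and 3, against 9.28, 11 and 7.33 CPM with diluent, a change of 4.90 ± 0.90 (adjusted p = 0.002). IFIT3 had 51, 417 and 54.9 CPM with prexasertib, against 11.9, 10.4 and 9.28 CPM with diluent, a change of 4.04 ± 0.80 (adjusted p = 0.0031). IFIT1 had 24.1, 160.5 and 24.6 CPM with prexasertib, against 7.54, 6.59 and 4.88 CPM with diluent, a change of 3.45 ± 0.67 (adjusted p = 0.0029). For all 3 genes replicates 1 and 3 agreed closely and lay above the diluent libraries, and replicate 2 was several times higher still. Without replicate 2 the changes were 3.01 (IFIT2), 2.30 (IFIT3) and 1.91 (IFIT1), all still called (adjusted p = 0.00015, 0.00043 and 0.00011). IFIT5 had 2.93, 14.1 and 1.99 CPM with prexasertib, against 1.82, 0.792 and 1.15 CPM with diluent, and its call (2.31 ± 0.66) ended without prexasertib replicate 2 (0.92, adjusted p = 0.089) and without diluent replicate 2 (2.03, adjusted p = 0.077).

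IFI44, OASL and ISG20 changed by amounts like those of IFIT3 and IFIT1. ISG20 had 5.37, 25.5 and 5.42 CPM with prexasertib, against 1.29, 0.972 and 1.07 CPM with diluent, a change of 3.43 ± 0.61. OASL had 11, 96.8 and 13.2 CPM with prexasertib, against 3.15, 2.11 and 2.07 CPM with diluent, a change of 4.03 ± 0.78. IFI44 had 1.12, 12.5 and 1.88 CPM with prexasertib, against 0.114, 0.522 and 0.321 CPM with diluent, a change of 4.06 ± 0.98. Each of them showed replicate 2 far above replicates 1 and 3, with no treated library inside the diluent range. Without replicate 2 they changed by 2.24 (ISG20), 2.27 (OASL) and 2.26 (IFI44), and stayed called. ISG15 stood at 32.4, 265 and 44.7 CPM with prexasertib, against 16.4, 18.9 and 16.8 CPM with diluent, a change of 2.71 ± 0.63 that was 1.12 without replicate 2 (adjusted p = 0.0015).

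Smaller rises came from HERC6 (2.09), OAS1 (1.75), OAS2 (1.72), MX1 (1.28), OAS3 (1.16), DDX60 (1.02), UBA7 (0.88) and IFITM3 (0.86). IFITM3 was low in this line, at 1.47, 1.75 and 1.64 CPM with prexasertib and 0.93, 0.81 and 0.941 CPM with diluent, and its libraries did not overlap. UBA7 was at 19.2, 17.4 and 12 CPM with prexasertib and 11.2, 6.3 and 8.81 CPM with diluent, with replicate 3 the lowest treated library, just above the diluent range. Without prexasertib replicate 2, HERC6 (0.79), OAS1 (0.77), UBA7 (0.80) and IFITM3 (0.77) stayed called. The calls of MX1 (0.93, adjusted p = 0.054), OAS2 (0.55, 0.14), OAS3 (0.47, 0.077) and DDX60 (0.30, 0.35) ended. OAS2 and DDX60 also ended without diluent replicate 2 (1.52 and 0.88, adjusted p = 0.087 and 0.12) or replicate 3 (1.66 and 0.91, adjusted p = 0.06 and 0.1).

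The 4 genes called lower in U937 are 8% of the set, where 12.8% of tested genes were called lower. BST2 had 131, 116 and 159 CPM with prexasertib, against 197, 188 and 169 CPM with diluent, a change of -0.45 ± 0.13 (adjusted p = 0.015). LY6E had 90.2, 72.3 and 112 CPM with prexasertib, against 141, 135 and 123 CPM with diluent, a change of -0.54 ± 0.14 (adjusted p = 0.01). IFITM2 had 108, 82.3 and 128 CPM with prexasertib, against 152, 163 and 144 CPM with diluent, a change of -0.53 ± 0.13 (adjusted p = 0.0079). In each of these genes replicate 2, the highest library for most others, was the lowest, and no treated library reached the diluent range. UBE2L6 had 54.6, 37.9 and 50.9 CPM with prexasertib, against 88.8, 56.4 and 62.9 CPM with diluent, a change of -0.54 ± 0.16 (adjusted p = 0.016). Without prexasertib replicate 2, IFITM2 stayed called (-0.40, adjusted p = 0.034) and the other 3 calls ended (BST2 -0.38, LY6E -0.42 and UBE2L6 -0.42, adjusted p = 0.07, 0.053 and 0.079). UBE2L6 also ended without diluent replicate 1 (-0.35, adjusted p = 0.08).

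Several genes that led in ML1 gave no call in U937. IFI27 was at 0.736, 1.03 and 0.693 CPM with prexasertib and 0.601, 1.06 and 0.62 CPM with diluent (0.11 ± 0.24, adjusted p = 0.75). EPSTI1 held 20 counts over 3 libraries with prexasertib and 21 with diluent (-0.28 ± 0.64, adjusted p = 0.77). IFI44L held 40 counts with prexasertib and 9 with diluent, too few for a firm value (1.88 ± 1.21). IFI6 had 20.8, 59.1 and 21 CPM with prexasertib, against 25.5, 17 and 17 CPM with diluent, where replicates 1 and 3 lay inside the diluent range and replicate 2 above it (0.76 ± 0.31, adjusted p = 0.07). PARP9 (0.60), DDX60L (0.71), PLSCR1 (0.50) and HERC5 (0.49) also had replicate 2 as the highest library and no call, and in each of them 1 more prexasertib library lay above the diluent range. C19orf66, EIF2AK2, IFI35, FBXO6 and RSAD2 had values within 0.1 of 0 (0.03, -0.06, 0.04, 0.09 and -0.07).

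Over the 50 genes, prexasertib replicate 2 lay farthest from diluent in U937. The median over the 50 genes of each library's log2 difference from the diluent mean was 0.20, 0.92 and 0.01 for prexasertib replicates 1, 2 and 3, while over all tested genes it was 0.03, 0.01 and -0.01. Among the 16 genes called higher, replicate 2 was a median of 4.99 times the mean of replicates 1 and 3, with a range of 1.11 to 8.89. The median ratio was 1.42 over the other 34 genes and 1.43 over all 3160 genes called higher. Without replicate 2, 11 of the 50 were called higher and 1 lower, where 10.3% of tested genes were called higher and 5.04% lower.

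**Figure D3:**
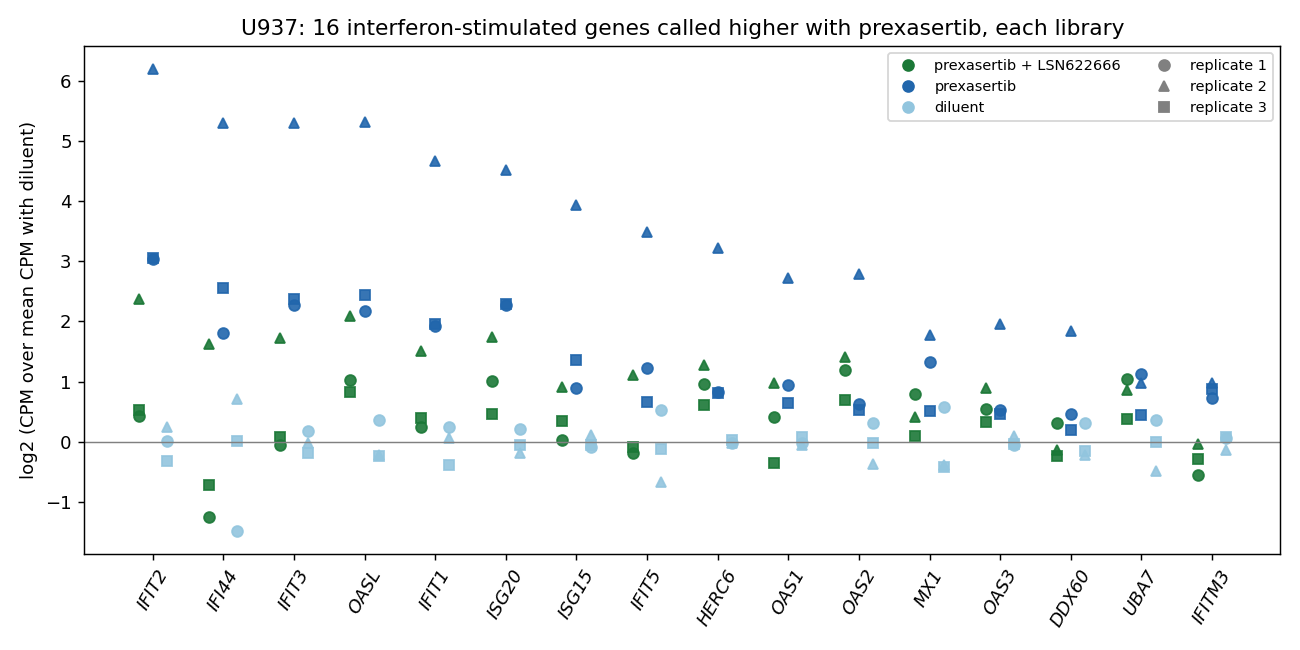
The 16 genes called higher with prexasertib in U937, each library as the log2 ratio of its CPM to the mean CPM with diluent, with colour for the group and symbol for the replicate number. Prexasertib replicate 2 (blue triangles) is the top library for most genes, and the combination libraries (green) lie below the prexasertib library of the same number for IFIT1, IFIT2, IFIT3, ISG15 and IFI44.

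The prexasertib change was smaller in U937 than in ML1 for all 50 genes, and the difference was called for 47. Background calls of the difference were 12.3% lower and 12.4% higher. The median difference was -3.26. Of the 47, 13 were called higher in both lines, 4 were called lower in U937 and higher in ML1, and 30 were called in ML1 with no call in U937. The 3 without a called difference were IFIT2 (-2.81 ± 1.10, adjusted p = 0.086), IFIT3 (-2.21 ± 1.01, 0.14) and IFIT5 (-0.87 ± 0.87, 0.52). These also became called, for 50 in all, without U937 prexasertib replicate 2 (-4.70, -3.96 and -2.27, adjusted p = 2.0e-05, 2.4e-05 and 0.0013). Background calls were then 12.9% lower and 11.1% higher.

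The differences were largest for EPSTI1 (-10.46 ± 0.95), IFI27 (-10.26 ± 0.34), IFI44L (-8.39 ± 2.28), IFITM1 (-8.27 ± 0.27) and OAS2 (-8.06 ± 0.80). IFITM1 showed the contrast from unlike baselines, with 9.28 ± 0.597 CPM with prexasertib and 10.2 ± 1.05 CPM with diluent in U937, and 88.6 ± 4.96 CPM with prexasertib and 0.300 ± 0.139 CPM with diluent in ML1 (SD, n = 3 each). Among the genes raised in both lines the smallest called difference was that of UBA7 (-0.79 ± 0.28, adjusted p = 0.048). It ended without U937 prexasertib replicate 3 (-0.62, adjusted p = 0.11), without U937 diluent replicate 1 or 3 (-0.59 and -0.83, adjusted p = 0.14 and 0.071), and without any 1 of the 6 ML1 libraries (values of -0.86 to -0.74, adjusted p of 0.056 to 0.1). The differences of OASL, IFI44 and IFI44L ended without U937 diluent replicate 1, 2 and 3 in that order (adjusted p = 0.055, 0.12 and 0.51, values -3.58, -5.40 and -5.95). Across the 50 genes the U937 and ML1 changes correlated with Pearson's r of 0.53 and Spearman's rho of 0.42, given as a description, since genes within a sample are not independent.

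**Figure D4:**
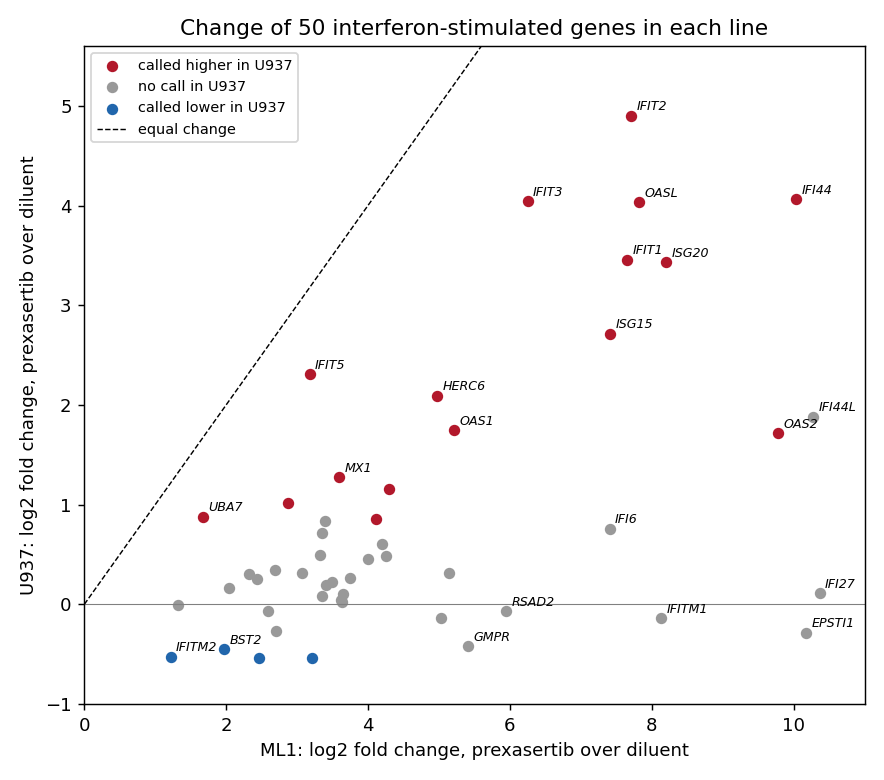
Log2 fold change of prexasertib over diluent in U937 (vertical axis) and ML1 (horizontal axis) for the 50 genes, coloured by the call in U937. All 50 points lie below the dashed line of equal change, and IFI27, EPSTI1 and IFITM1 lie far to the right close to 0 on the vertical axis.

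Adding LSN622666 to prexasertib in U937 lowered 15 of the 50 genes and raised 1 relative to prexasertib alone. Background calls were 17.1% lower and 11.9% higher. The members' median was -0.49. For 4 genes every combination library lay above every prexasertib library, and for 13 every one lay below, which held for 18.8% and 23.4% of tested genes. By role the calls lower were 8 of 14 genes that act on RNA or translation, 2 of 7 under ISG15 and ubiquitin-like conjugation, 2 of 7 membrane genes, 1 of 2 GTPase genes, 1 of 2 nuclear body genes and 1 of 10 in the mixed group. This comparison and the comparison of prexasertib with diluent share the prexasertib libraries, so a high library in that group moves both. Same-numbered combination and prexasertib libraries deviated together, so the value with the replicate number as a block is given where it changes a call.

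IFIT2 was at 12.3, 47.4 and 13.2 CPM in combination replicates 1, 2 and 3, against 75.4, 674 and 76.2 CPM with prexasertib, a change of -3.50 ± 0.83 (adjusted p = 0.0084). IFIT3 was at 10.1, 34.9 and 11.1 CPM in the combination, against 51, 417 and 54.9 CPM with prexasertib, a change of -3.22 ± 0.76 (adjusted p = 0.0082). IFIT1 was at 7.51, 18.1 and 8.3 CPM in the combination, against 24.1, 160.5 and 24.6 CPM with prexasertib, a change of -2.63 ± 0.64 (adjusted p = 0.0096). In each of the 3 genes all combination libraries lay below all prexasertib libraries, and replicate 2 was the highest of both groups. Without prexasertib replicate 2 the changes were -1.64, -1.50 and -1.11, still called (adjusted p = 0.011, 0.0083 and 0.0067). With the replicate block IFIT1 was no longer called (-2.14, adjusted p = 0.073).

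ISG20 was at 2.23, 3.71 and 1.53 CPM in the combination, against 5.37, 25.5 and 5.42 CPM with prexasertib, a change of -2.28 ± 0.55 that was -1.12 without prexasertib replicate 2 (adjusted p = 0.0085 and 0.011). OASL was at 4.96, 10.4 and 4.35 CPM in the combination, against 11, 96.8 and 13.2 CPM with prexasertib, a change of -2.62 ± 0.71 (adjusted p = 0.017). ISG15 was at 17.7, 32.6 and 22 CPM in the combination, against 32.4, 265 and 44.7 CPM with prexasertib, a change of -2.24 ± 0.62 (adjusted p = 0.018). Each combination library lay below the prexasertib library of the same number for these 3 genes, and replicate 2 was again the highest of both groups. The replicate block ended the calls of OASL (-2.01, adjusted p = 0.14), ISG15 (-1.62, 0.22) and DDX60 (-0.83, 0.35).

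IFI44 was at 0.134, 0.985 and 0.194 CPM in the combination, against 1.12, 12.5 and 1.88 CPM with prexasertib, a change of -3.56 ± 0.90 (adjusted p = 0.012). IFIT5 was at 1.11, 2.71 and 1.18 CPM in the combination, against 2.93, 14.1 and 1.99 CPM with prexasertib, a change of -1.92 ± 0.63 (adjusted p = 0.038). For IFIT5 the second combination library lay inside the prexasertib range. IFITM3 was at 0.612, 0.875 and 0.729 CPM in the combination, against 1.47, 1.75 and 1.64 CPM with prexasertib, a change of -1.13 ± 0.15 that was -1.06 without prexasertib replicate 2. OAS1 (-1.30), DDX60 (-1.02), HERC5 (-0.88), MX1 (-0.83), SP110 (-0.54) and IFITM1 (-0.47) were the other genes called lower.

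C19orf66 was the gene called higher. It was at 23.5, 19.4 and 20.1 CPM in the combination, against 14.9, 13.8 and 12 CPM with prexasertib, without overlap, a change of 0.63 ± 0.13 (adjusted p = 0.0017). Its exons share 442 bases, 10.2% of its exon length, with ANGPTL6 on the other strand, and the kit does not mark strand. With the replicate block BST2, LY6E and UBE2L6, which had been lower with prexasertib than with diluent, were called higher in the combination (0.28, 0.39 and 0.44, adjusted p = 0.025, 0.0032 and 0.0016), and USP18, XAF1, SP100 and PLSCR1 were called lower (-0.50, -0.48, -0.34 and -0.42, adjusted p = 0.015, 0.011, 0.016 and 0.012).

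Most of these calls depended on single libraries. Without prexasertib replicate 2 there were 7 genes called lower (IFIT1, IFIT2, IFIT3, ISG15, ISG20, IFI44 and IFITM3), 1 higher, and the members' median was -0.04, where 10.3% of tested genes were called lower and 6.32% higher. The change of ISG15 was then -0.67 and that of IFI44 -1.77. The calls of IFIT5, OAS1, OASL, DDX60, HERC5, MX1, SP110 and IFITM1 ended there (values of -0.56, -0.35, -0.88, -0.33, -0.49, -0.51, -0.23 and -0.41, adjusted p = 0.29, 0.35, 0.0504, 0.32, 0.075, 0.29, 0.22 and 0.11). Without combination replicate 3, 6 genes were called lower, and the calls of IFI44, ISG15, OASL, IFIT5, OAS1, DDX60, MX1, SP110 and IFITM1 ended (adjusted p of 0.055 for IFI44 to 0.18 for MX1). Over all tested genes 2032 were then called lower. Without combination replicate 1 the calls of IFI44, ISG15, OASL, IFIT5, OAS1 and IFITM1 ended (0.054 for IFI44 to 0.12 for IFIT5). Without combination replicate 2 those of DDX60 (0.081), MX1 (0.1) and IFITM1 (0.071) ended. Without prexasertib replicate 1 the call of MX1 ended (0.093), and without prexasertib replicate 3 that of IFITM1 (0.052). IFIT1, IFIT2, IFIT3, ISG20, IFITM3 and C19orf66 stayed called whichever 1 of the 6 libraries was left out. In a fit to the combination and prexasertib libraries alone, the calls of IFIT1, IFIT2 and IFIT3 ended (adjusted p = 0.078, 0.069 and 0.07).

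Against diluent, the combination left 47 of the 50 genes without a call. There 2 were called higher and 1 lower, where background calls were 6.88% higher and 4.11% lower, and the members' median was 0.08. This comparison shares its libraries with both other U937 comparisons. C19orf66 was at 23.5, 19.4 and 20.1 CPM in the combination and 14.8, 12 and 13.3 CPM with diluent, a change of 0.65 ± 0.13 (adjusted p = 0.0047). UBA7 was at 18, 16 and 11.4 CPM in the combination and 11.2, 6.3 and 8.81 CPM with diluent, a change of 0.78 ± 0.20 (adjusted p = 0.022). IFITM1 was at 6.48, 6.73 and 6.87 CPM in the combination and 11.3, 10.2 and 9.15 CPM with diluent, a change of -0.61 ± 0.16 (adjusted p = 0.023). The groups did not overlap for these 3 genes, though UBA7 replicate 3 of the combination lay close to the highest diluent library.

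The calls of UBA7 and IFITM1 against diluent were lost without single libraries. UBA7 ended without combination replicate 1 (0.60, adjusted p = 0.13) or 2 (0.74, 0.056) and diluent replicate 2 (0.56, 0.12) or 3 (0.75, 0.076). IFITM1 ended without combination replicate 1 or 2 (-0.62 and -0.61, adjusted p = 0.071 and 0.053) and without diluent replicate 1 or 2 (-0.55 and -0.64, 0.054 and 0.057). IFIT1, IFIT2 and IFIT3, called higher with prexasertib alone, had no call in the combination against diluent, at a fold of 2.64 for IFIT2 (adjusted p = 0.27), and log2 changes of 0.83 ± 0.72 for IFIT3 (0.49) and 0.83 ± 0.63 for IFIT1 (0.42). All combination libraries of IFIT2, replicates 2 and 3 of IFIT1 and replicate 2 of IFIT3 lay above the diluent range.

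With diluent the lines differed in 34 of the 50 genes, with 13 higher and 21 lower in U937 than in ML1. These are 26% and 42% of the set, where background calls were 32.0% higher and 29.4% lower. LGALS3BP was at 1.27 ± 0.635 CPM in U937 and 205 ± 2.98 CPM in ML1 (-7.34 ± 0.35), RTP4 at 0.106 ± 0.0561 and 3.82 ± 0.564 CPM (-5.23 ± 0.33), and UBA7 at 8.78 ± 2.47 and 191 ± 16.3 CPM (-4.44 ± 0.23), each as mean and SD over 3 libraries. IFITM3 (-3.82), IFIT5 (-3.58), IFI35 (-2.89), SAMD9L (-2.66) and XAF1 (-2.36) were also lower in U937. On the other side IFITM1 was at 10.2 ± 1.05 CPM in U937 and 0.300 ± 0.139 CPM in ML1 (5.02 ± 0.21), and GMPR at 17.5 ± 1.12 and 0.979 ± 0.194 CPM (4.17 ± 0.21). FBXO6 (2.53), LY6E (2.10), OAS2 (1.88), IFI6 (1.86), IFITM2 (1.70) and HERC5 (0.82) were higher in U937 as well. IFIT1 (0.84), IFIT2 (-0.76), IFIT3 (-1.07), ISG15 (1.05), ISG20 (0.18), OASL (0.01) and IFI44 (1.12), which had the 7 largest changes in U937 with prexasertib, had no call between the lines with diluent. The diluent libraries of the lines did not overlap for IFIT1, IFIT2 and ISG15, while they overlapped for ISG20, OASL and IFI44. Lack of overlap was common in this comparison. Of 17243 tested genes, every U937 library lay above every ML1 library in 6111 and below in 5846. Among the 50 genes these numbers were 18 and 23. In a fit to the diluent groups alone, 18 of 48 genes tested were called higher and 23 lower, with 5402 and 5256 over all tested genes. In the main fit the calls of 3 genes ended without single diluent libraries. PARP10 ended without U937 replicate 2 or 3 or ML1 replicate 1 (adjusted p = 0.057, 0.075 and 0.055), UBE2L6 without U937 replicate 1 (0.095), and SP110 without any 1 of the U937 libraries or ML1 replicate 2 or 3 (0.07 to 0.12).

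Levels between genes can be set side by side per kilobase of annotated exon. With diluent BST2 was the highest of the 50 in both lines, at 165 CPM per kilobase in U937 and 139 in ML1, and IFI44L was the lowest, at 0.00615 and 0.00769. With prexasertib BST2 (121) and ISG15 (121) were close at the top in U937. In ML1 the order began with ISG15 at 1526 CPM per kilobase, then IFI6 at 1075, IFIT2 at 798, IFIT3 at 638 and BST2 at 548. IFI44L, in the top 4 by fold change in ML1, was still next to last by level there (10.4). Exon lengths join all annotated transcripts, so genes with long alternative exons get lower values.

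The genes upstream of this set were read from a list of 41 genes for interferons, receptors, kinases, transcription factors, nucleic acid sensors and negative regulators, of which 29 passed the low-count filter. In ML1 prexasertib raised 22 of the 29 and lowered none, at the background of 25.3% and 23.5%. In U937 it raised 10 and lowered 2 (JAK1 -0.39 and MAVS -0.51), at the background of 18.3% and 12.8%. Without replicate 2, an alternative chosen after seeing the data, it raised 7 and lowered 1, at the background of 10.3% and 5.04%. The difference between lines was called lower for 19 and higher for 1, at the background of 12.3% and 12.4%. Without that library it was called lower for 18 and higher for 1, at the background of 12.9% and 11.1%. The interferon genes themselves held few counts in U937. IFNB1, the gene of interferon beta, held 100 counts over 3 libraries with prexasertib and 12 with diluent in U937 (2.79 ± 0.87, adjusted p = 0.024, and 2.12, adjusted p = 0.12, without replicate 2), and 2534 with prexasertib and 6 with diluent in ML1 (8.90 ± 0.89, adjusted p = 4.3e-07). IFNL1, a type III interferon, held 53 counts with prexasertib and 0 with diluent in U937, at least 15.2-fold higher, and 771 and 0 counts in ML1, at least 303-fold higher, with 3 counts over a group as the floor. Whether both mates of a pair were counted is not given, and if they were, these bounds would be lower. In the combination IFNB1 held 36 counts and IFNL1 held 10. Relative to prexasertib alone IFNB1 was not called (-1.61). IFNL1 was called lower (-2.52), but not without prexasertib replicate 2 (-1.28, adjusted p = 0.35). The difference of the prexasertib effect between lines was called for IFNB1 (-6.10) and not for IFNL1 (-4.08), which had 0 counts in both diluent groups. Counts of 7 interferon alpha and omega genes summed to 10 in the combination, 32 with prexasertib and 6 with diluent in U937, and to 156 with prexasertib and 0 with diluent in ML1, and these genes were not tested.

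Transcription factor genes of the pathway were among those raised. In U937 IRF9 (1.83 ± 0.30), IRF7 (2.25 ± 0.34), STAT2 (0.46 ± 0.17) and IRF1 (0.89 ± 0.18) rose with prexasertib. Without replicate 2 IRF9 (1.18), IRF7 (1.48) and IRF1 (0.74) stayed called and STAT2 did not (0.27, adjusted p = 0.3). In ML1 IRF9 rose by 4.13 ± 0.32, IRF7 by 4.39 ± 0.37, STAT2 by 2.76 ± 0.18 and IRF1 by 0.76 ± 0.17. The RNA sensor genes DDX58 (RIG-I) and DHX58 had changes of 0.57 ± 0.33 and 1.14 ± 0.43 in U937, neither called (-0.24 and 0.19 without replicate 2), and rose by 4.54 ± 0.37 and 4.80 ± 0.44 in ML1. IFIH1, another RNA sensor gene, was called higher in U937 (2.23, and 1.60 without replicate 2, adjusted p = 8.3e-05). Its effect in U937 was smaller than in ML1 (difference of -3.02, called). The feedback inhibitors SOCS1 and SOCS3 rose by 2.27 and 1.47 in U937, where SOCS1 stayed called without replicate 2 (1.75) and SOCS3 did not (0.86, adjusted p = 0.054), and by 5.16 and 4.98 in ML1. Relative to prexasertib alone, the combination lowered 12 of the 29 and raised 2, TYK2 (0.53) and MAVS (0.58), at the background of 17.1% and 11.9%. Without prexasertib replicate 2 it lowered 6 and raised 1, at the background of 10.3% and 6.32%, with MAVS no longer called (0.39, adjusted p = 0.068). Among the 12 were SOCS1 (-2.19), IRF1 (-0.96), IRF7 (-0.99), the RNA sensor gene IFIH1 (-1.79) and the cytosolic DNA sensor gene MB21D1 (-1.11). Without that library SOCS1 (-1.70), IRF1 (-0.83), IFIH1 (-1.18) and MB21D1 (-1.02) stayed called and IRF7 did not (-0.24, adjusted p = 0.34). The receptor genes gave smaller values, with IFNAR1 at 0.11 and IFNAR2 at -0.20 in U937, neither called, and at 0.36 and 0.31 in ML1, both called higher.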

How the data were processed

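RNA-seq counts were measured in 15 libraries of U937 and ML1, 3 for each of 5 groups, with groups and replicate numbers from the labels. The values the authors deposited are raw counts of reads for each gene symbol, not normalized. Per the submitters' processing notes, TopHat2 2.0.14, Bowtie2 2.2.6, featureCounts 1.4.6 of Subread and the hg38 build were used. Which gene annotation and strand setting were used, and how mates were counted, is not given in the sources used here. Among low counts (1 to 20), 56.3% to 62.1% were even in each library. Per the labels' protocols the library kit was TruSeq v2, which does not mark strand.

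The tests were run with edgeR 4.0.16 in R 4.3.3 on the 17243 of 26485 genes that filterByExpr kept. After TMM scaling, a robust quasi-likelihood model with 1 mean for each group was fitted over the 15 libraries together, leaving 10 residual degrees of freedom, and the biological coefficient of variation had a median of 0.163. All 6 contrasts were tested with the F test, p-values were adjusted by Benjamini-Hochberg across the tested genes, and calls were made below 0.05. Standard errors were derived from the log2 fold change and its F value. The same pipeline was tested on simulated data. The genes and lists were chosen with earlier results of these data known.

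Values in every library are given for up to 8 genes in each direction of a comparison with the largest called change and a mean of at least 1 CPM, and for genes that moved against the majority. Coordinates, exon lengths and overlaps are from GENCODE v29 on GRCh38. Library totals of 49011222 to 87301014 counts put 3 counts over a group, the floor for genes at 0, between 0.0135 and 0.0177 CPM. Without molecular identifiers such limits hold counting error alone.

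Alternatives were DESeq2 1.42.0, its size factors in edgeR, a stricter filter (5 CPM in 3 libraries), no filter, a fit to the groups compared, a replicate block, and leaving out each library. Deviations from group means correlated at 0.409, 0.37 and 0.384 between same-numbered combination and prexasertib libraries, each over the 0.1 needed, so numbers were taken to pair those groups, while every other pair of groups had at least 1 value under 0.1. No library was left out of the main results, and no column was without a sample.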

Additional observations from a re-analysis of the deposited data

Results flagged for a closer look

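For 47 of the 50 genes the prexasertib effect differed between the lines by the test of the difference itself, which is why they are listed. Each value is the log2 effect in U937 minus that in ML1, and all are negative. Among the genes that act on RNA or translation it was -4.20 for IFIT1, -4.77 for ISG20, -3.47 for OAS1, -8.06 for OAS2, -3.15 for OAS3, -3.80 for OASL, -1.86 for DDX60, -2.64 for DDX60L, -3.60 for C19orf66, -2.66 for EIF2AK2 and -1.33 for ADAR. Under ISG15 and ubiquitin-like conjugation it was -4.70 for ISG15, -4.82 for USP18, -3.78 for HERC5, -2.88 for HERC6, -0.79 for UBA7, -3.00 for UBE2L6 and -3.26 for FBXO6. For the GTPase genes it was -2.32 for MX1 and -2.97 for MX2.

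Among the membrane genes the difference was -8.27 for IFITM1, -1.74 for IFITM2, -3.26 for IFITM3, -2.42 for BST2, -3.76 for LY6E, -2.56 for RTP4 and -2.82 for PLSCR1. The nucleotide genes gave -6.01 for RSAD2, -5.16 for CMPK2 and -5.83 for GMPR, the ADP-ribosylation genes -3.59 for PARP9, -3.21 for PARP10, -3.55 for PARP12, -3.26 for PARP14 and -1.88 for DTX3L and the nuclear body genes -2.02 for SP100 and -2.76 for SP110. In the mixed group it was -6.65 for IFI6, -10.26 for IFI27, -3.57 for IFI35, -5.97 for IFI44, -8.39 for IFI44L, -10.46 for EPSTI1, -2.34 for SAMD9, -3.48 for SAMD9L, -3.55 for XAF1 and -2.19 for LGALS3BP. All groups held 3 libraries, so no single library was tested as an outlier within its group.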

How the results depend on the processing

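All 50 genes stayed called higher in ML1 under every edgeR alternative, with 48 in DESeq2, and the called differences between lines numbered 45 to 50. Over all tested genes the alternatives gave 3414 to 4599 higher in ML1 and 1785 to 2539 lower differences. Of calls made, 50 of 50 in ML1, 4 of 20 for prexasertib in U937 (11 without counting the block), 3 of 16 for the combination against prexasertib, 1 of 3 for the combination against diluent, 43 of 47 differences and 31 of 34 between lines with diluent held in every alternative that gave them an adjusted p (2 had none in DESeq2 for ML1), and none reversed. For prexasertib in U937, 16 higher became 4 with the replicate block, and 4 lower became 2 in the fit to the groups compared. Over all tested genes the block gave 3383 higher and 2711 lower there, and that fit 2462 and 1008, against 3160 and 2209 in the main fit. For the combination against prexasertib, 1 higher became 3 with the stricter filter, 2 in DESeq2 and 4 with the block, and 15 lower became 4 in the fit to the groups compared. Over all tested genes the block gave 3733 higher and 3704 lower there, and that fit 1462 and 2128, against 2048 and 2947 in the main fit. For the combination against diluent, 2 higher became 7 in that fit and 13 with the block, and 1 lower became 0 with the stricter filter, 2 in DESeq2, 2 in that fit and 3 with the block, while over all tested genes the block gave 2820 higher and 2924 lower, against 1186 and 709 without it. The fit to the groups compared gave 1196 higher and 695 lower over all tested genes. The cause of these shifts was not tested. That fit tested 47 of the genes for the U937 comparisons with prexasertib and 48 for the combination against diluent.

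Leaving out 1 library at a time gave 11 to 22 higher and 1 to 5 lower for prexasertib in U937, 1 to 3 higher and 6 to 21 lower for the combination against prexasertib, and 1 to 2 higher and 0 to 1 lower for the combination against diluent. Over all tested genes it gave 1803 to 3565 higher and 881 to 2727 lower for prexasertib in U937. For the combination these were 1105 to 2108 and 1794 to 3057 against prexasertib, and 425 to 1061 and 179 to 714 against diluent. The replicate block, with the combination and prexasertib groups as the paired ones, gave 15 lower for the combination against prexasertib as without it, though 4 calls left and 4 entered. In the other comparisons same-numbered libraries share a number and the block gave 50 higher in ML1, 48 lower differences, and 18 higher and 23 lower between lines with diluent, with 5 lower for prexasertib in U937. Over all tested genes the block gave 4588 higher in ML1, 2505 lower differences, and 5278 higher and 5165 lower between lines with diluent. Depth limits IFI44L and EPSTI1 in U937, which held 9 to 40 counts a group with prexasertib or diluent.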
